A study of Mus musculus with 4 samples.

Results

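The genes described here encode the aminoacyl-tRNA synthetases, and they were chosen by name: 20 genes for cytosolic enzymes and 16 genes, with symbols ending in 2, for mitochondrial ones. Each of the 36 symbols matched 1 row of the 53465 gene rows in the count table, and all 36 were among the 13664 genes abundant enough to be tested. Poly(A) RNA was sequenced from B16 cells, a mouse melanoma line, in 2 control libraries and in 2 libraries of cells treated for 4 h with EM-plasma, plasma that had been exposed to exosome-mimetic nanovesicles (EMs). The labels do not say what the plasma was, what the controls received or whether any library is a separate culture. The p-values therefore reflect only how far these libraries spread, which may be technical. The comparison asks how the B16 transcriptome differs after EM-plasma.

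Each synthetase joins 1 amino acid to its matching tRNA, and the charged tRNA then carries that amino acid to the ribosome. Mitochondria make a few proteins on ribosomes of their own and import a separate set of nuclear-encoded synthetases for this, so most amino acids have a pair of genes. Exceptions are Gars (glycine) and Kars (lysine), whose single genes supply both compartments, and Qars (glutamine), which has no mitochondrial counterpart because mitochondria charge that tRNA with glutamate by Ears2 and then convert it. When amino acids run short, uncharged tRNA activates the kinase GCN2, translation of the factor ATF4 increases, and ATF4 raises amino acid synthesis, amino acid import and many, though not all, of the cytosolic synthetases.

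Total counts ran from 46295133 to 49367932 per library, and the 36 genes held between 0.576% and 0.622% of them. All 7 melanocyte markers examined were present, with a summed level of 11000 to 11300 CPM, the usual depth-scaled read count, in each library, and 0 of the 7 were called. Of the leukocyte markers 4 of 5, and of the red cell markers 2 of 3, had no read in any library; the lists summed to at most 0.0203 and 0.021 CPM. Summed levels were at most 1.85 CPM for 3 epithelial markers and 0.168 CPM for 3 endothelial ones. The 3 fibroblast markers summed to 4.25 to 4.55 CPM in controls and 5.5 to 6.07 CPM with EM-plasma, and 0 of the 2 that were abundant enough to test were called. Epcam, Cdh5 and Kdr were at 0 in all libraries. The part of these low signals in the results was not tested.

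Of the 20 cytosolic genes 6 rose with EM-plasma and 0 fell, and of the 16 mitochondrial genes 0 were called in either direction (edgeR's quasi-likelihood test, Benjamini-Hochberg adjusted p below 0.05 over all genes tested). The 6 were Cars, Sars, Aars, Nars, Yars and Gars, and their rises were small, between 1.13-fold and 1.18-fold. Among all genes tested 6.21% were called, 3.34% higher and 2.88% lower, against 30% of the cytosolic genes called higher. Beside that share, 0 of 16 mitochondrial genes is near the background and does not show that they were unchanged. The median log2 fold change was 0.093 over the cytosolic genes, 0.031 over the mitochondrial genes and -0.0027 over all genes tested. With 1 library left out, the mitochondrial median ran from 0.0101 (without control 2) to 0.0631 (without control 1). At an unadjusted p below 0.05 there were 10 cytosolic genes higher and 1 lower, and 1 mitochondrial gene higher and 0 lower, where 19.5% of all genes reached that level in either direction. DESeq2 called 6 cytosolic genes higher, 0 lower and 0 mitochondrial genes. Whether the compartments differed in their response was not tested. The members were listed with earlier results of these data known, so the counts describe the group and do not test it.

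**Figure D1:**
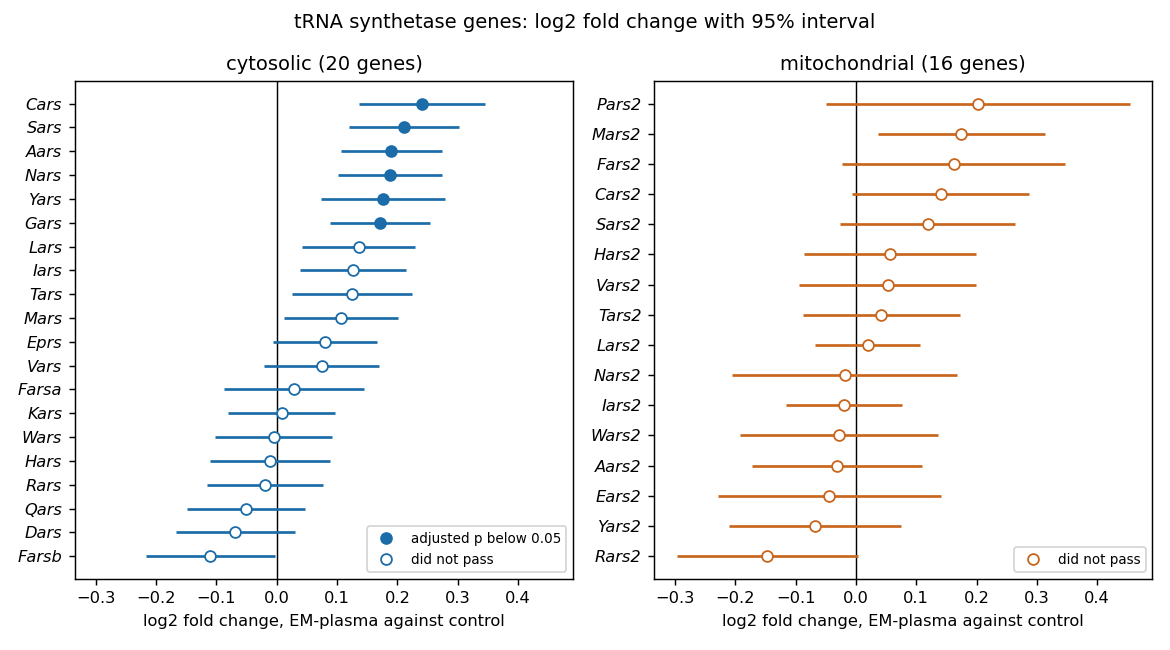
Log2 fold change of EM-plasma against control (horizontal axis) for the 20 cytosolic (left) and 16 mitochondrial (right) synthetase genes, each a point with its 95% interval, ordered by size; filled points passed the test (2 libraries per group). The 6 filled points lie between 0.17 and 0.24, all of them cytosolic, and the median half-width of an interval is 0.0959 for cytosolic and 0.145 for mitochondrial genes.

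Cars, which charges tRNA with cysteine (chromosome 7, 143557230 to 143600090, GRCm38, ENSMUSG00000010755), had the largest fold change of the called genes. It was at 117 and 120.3 CPM in the controls and at 136 and 144 CPM with EM-plasma, so both treated libraries were above both controls. The means were 118 ± 2.64 and 139.9 ± 5.95 CPM (SD, n = 2 per group), a log2 fold change of 0.24 (SE 0.051, edgeR adjusted p = 0.00306). Sars, for serine (chromosome 3, 108424865 to 108445209, ENSMUSG00000068739), was at 232 and 231 CPM in controls and at 263 and 273 CPM with EM-plasma. The controls of Sars lay closer together than the treated libraries, and the groups did not overlap (log2 fold change 0.21, SE 0.045, edgeR adjusted p = 0.00337).

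Aars, for alanine (chromosome 8, 111033144 to 111057664, ENSMUSG00000031960), was at 498 and 484 CPM in controls and at 559 and 561 CPM with EM-plasma. Its treated libraries almost coincided, above both controls (log2 fold change 0.19, SE 0.041, edgeR adjusted p = 0.00388). Exosc6, a gene of the RNA exosome on the same strand, lies over 14.3% of the exonic bases of Aars, and reads from that stretch cannot be assigned to one of them. Nars, for asparagine (chromosome 18, 64499647 to 64516652, ENSMUSG00000024587), was at 375 and 379 CPM in controls and at 427 and 432 CPM with EM-plasma. Replicates of Nars differed by far less than the groups did (log2 fold change 0.19, SE 0.042, edgeR adjusted p = 0.00522).

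Yars, for tyrosine (chromosome 4, 129189760 to 129219607, ENSMUSG00000028811), was at 120.4 and 122 CPM in controls and at 133 and 140.5 CPM with EM-plasma. Of the 6 called genes Yars had the largest adjusted p (log2 fold change 0.18, SE 0.050, edgeR adjusted p = 0.0318). Gars, the glycine enzyme of both compartments (chromosome 6, 55038007 to 55079500, ENSMUSG00000029777), was at 481 and 489.9 CPM in controls and at 543 and 550.2 CPM with EM-plasma. Gars had the highest level per length of the 36 genes, and its groups were apart as well (log2 fold change 0.17, SE 0.041, edgeR adjusted p = 0.00938).

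With 1 library left out at a time the sign of these 6 held but the calls mostly did not. Aars, Gars, Nars and Sars passed without control 1, with 4 cytosolic genes called, and 0 were called when any of the other libraries (control 2 or either EM-plasma library) was the one left out. Across those 4 fits the log2 fold change ran from 0.196 to 0.283 for Cars, 0.183 to 0.235 for Sars, 0.172 to 0.207 for Aars, 0.175 to 0.20 for Nars, 0.136 to 0.213 for Yars and 0.154 to 0.187 for Gars.

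The sequences around the starts of these genes are shown because ATF4 is known to bind, with a partner factor, a composite element whose core is read here as TGATGNAA or, on the other strand, TTNCATCA. RefSeq windows from 250 bases before to 50 bases after an annotated transcript start (GRCm38.p6) were at hand for 13 cytosolic and 14 mitochondrial members. Of these windows the core stood in 5 cytosolic genes (Aars, Gars, Iars, Tars and Yars) and in 0 mitochondrial genes. It stood in 3.97% of all 32851 windows and in 2.70% of the 9787 tested genes with a window. Stretches of 30 bases follow, 5′ to 3′ on the strand of the gene, with the core in capitals, for Aars (chr8:111033842-111033871, + strand), Gars (chr6:55037960-55037989, + strand), Tars (chr15:11399655-11399684, - strand), Iars (chr13:49682127-49682156, + strand) and Yars (chr4:129189896-129189925, + strand). The last bases before the start of Sars (chr3:108445260-108445289, - strand), a called gene with no match in its window, and of Tars2 (chr3:95754978-95755007, - strand), the mitochondrial counterpart of Tars, are given for contrast.
Aars: cgggtcactTTTCATCAgagcgctctgatt
Gars: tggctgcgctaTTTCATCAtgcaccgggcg
Tars: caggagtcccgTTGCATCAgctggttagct
Iars: actgtcagtaTTGCATCAcctccagacgcg
Yars: cgagctcagcTGATGCAAcccgacgggact
Sars, no match: gaccctgcctaacactgcggcttccggcga
Tars2, no match: ggctgctgctgtgtgggttctacctcagcg

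In the GENCODE annotation the stretches of Aars, Iars, Yars and Tars2 lie within annotated exons, 11 of the 30 bases of Tars do, and those of Gars and Sars lie outside exons. In Iars and Tars the matched letters were TTGCATCA, in Yars the same 8 bases were read on the other strand, and in Gars and Aars, at the sites shown, they were TTTCATCA. Counted from the first transcribed base as 1, the matches shown began at 10 in Aars, -30 in Gars, -15 in Tars, 8 in Iars and 4 in Yars. Of the 5 genes with a match 3 were called higher, and their median log2 fold change was 0.171. Of the 8 cytosolic genes with a window and no match 1 was called higher (Sars), with a median of 0.018. Over all tested genes with a window 20 of 264 with a match were called higher (7.58%) and 285 of the others (2.99%), and the medians were 0.0028 and -0.0057. Nars and Cars, called higher, had no window. Of the 13 genes of the response described below, only the 6 called higher were searched. Asns, Atf3, Chac1 and Trib3 held the core in their windows, and Atf4 and Ddit3 did not. These 6 were picked by their rise, so their matches are not separate evidence about the core. The E-box CACGTG, which MYC and related factors read, stood in 4 of the 13 cytosolic windows (Aars, Farsb, Iars and Tars) and 1 of the 14 mitochondrial ones (Ears2), against 12.0% of the tested genes with a window. A match is a run of letters and was not shown to be bound.

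**Figure D2:**
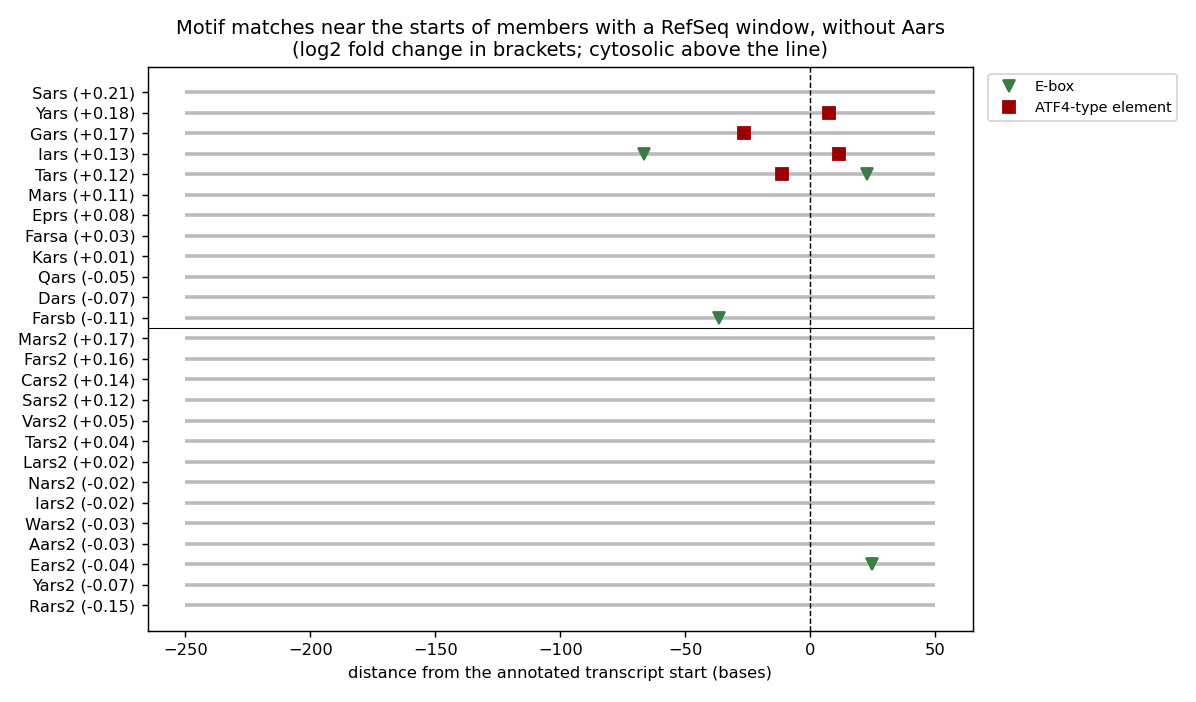
Matches to the ATF4-type core (squares) and to the E-box (triangles) by distance from the annotated transcript start (horizontal axis, bases) in cytosolic and mitochondrial members with a RefSeq window, Aars left out, ordered by log2 fold change within each compartment. The squares fall in Gars, Iars, Tars and Yars, with log2 fold changes from 0.12 to 0.18, and in no mitochondrial gene.

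Among the other cytosolic enzymes, Lars, Iars, Tars and Mars, for leucine, isoleucine, threonine and methionine, had both EM-plasma libraries above both controls without passing the test. Lars was at 199.9 and 206 CPM in controls and at 222 and 224 CPM with EM-plasma (log2 fold change 0.14, edgeR adjusted p = 0.0747). Iars was at 327 and 342 against 363 and 366 CPM (0.13, edgeR adjusted p = 0.0798). Tars was at 140.1 and 143 against 151 and 157 CPM (0.12, edgeR adjusted p = 0.133), and Mars had a log2 fold change of 0.11 (edgeR adjusted p = 0.182). The 95% intervals of these 4 genes lay above 0. The 3' end of Mars overlaps that of Ddit3 on the opposite strand by 68 exonic bases.

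Eprs, a fused enzyme for glutamate and proline, was at 479 and 500.1 CPM in controls and at 507 and 528 CPM with EM-plasma (log2 fold change 0.080, edgeR adjusted p = 0.308), and Vars, for valine, had a log2 fold change of 0.075 (edgeR adjusted p = 0.406). The treated libraries of Eprs were above its controls, and those of Vars overlapped with them. Farsa and Farsb encode the subunits of 1 phenylalanine enzyme, with values of 0.028 for Farsa (-0.0227 to 0.080 when 1 library was left out) and -0.11 for Farsb. Farsb was at 111 and 118 CPM in controls and at 104 and 108 CPM with EM-plasma, the lowest log2 fold change of the cytosolic genes (edgeR unadjusted p = 0.0439, adjusted p = 0.236).

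The remaining cytosolic genes lay near or below 0. Kars (lysine), at 293 and 294 CPM in controls and 293 and 297 CPM with EM-plasma, had a 95% interval from -0.081 to 0.096. Wars (tryptophan), at 178 and 170.4 against 174 and 173 CPM, had an interval from -0.10 to 0.092. The intervals were -0.11 to 0.088 for Hars (histidine), -0.12 to 0.077 for Rars (arginine), -0.15 to 0.048 for Qars and -0.17 to 0.031 for Dars (aspartate). The sign of Farsa, Hars, Kars, Rars and Wars changed when a library was left out. Dars, Farsb and Qars had both treated libraries below both controls. In all, 11 cytosolic genes had both treated libraries above both controls and 3 below. Of the 16 mitochondrial genes 5 had them above and 0 below, where 24.3% and 24.8% of all genes tested did so. EM-plasma 2 exceeded EM-plasma 1 in 18 of the 20 cytosolic genes and in 8 of the 16 mitochondrial ones, against 52.1% of all genes tested.

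**Figure D3:**
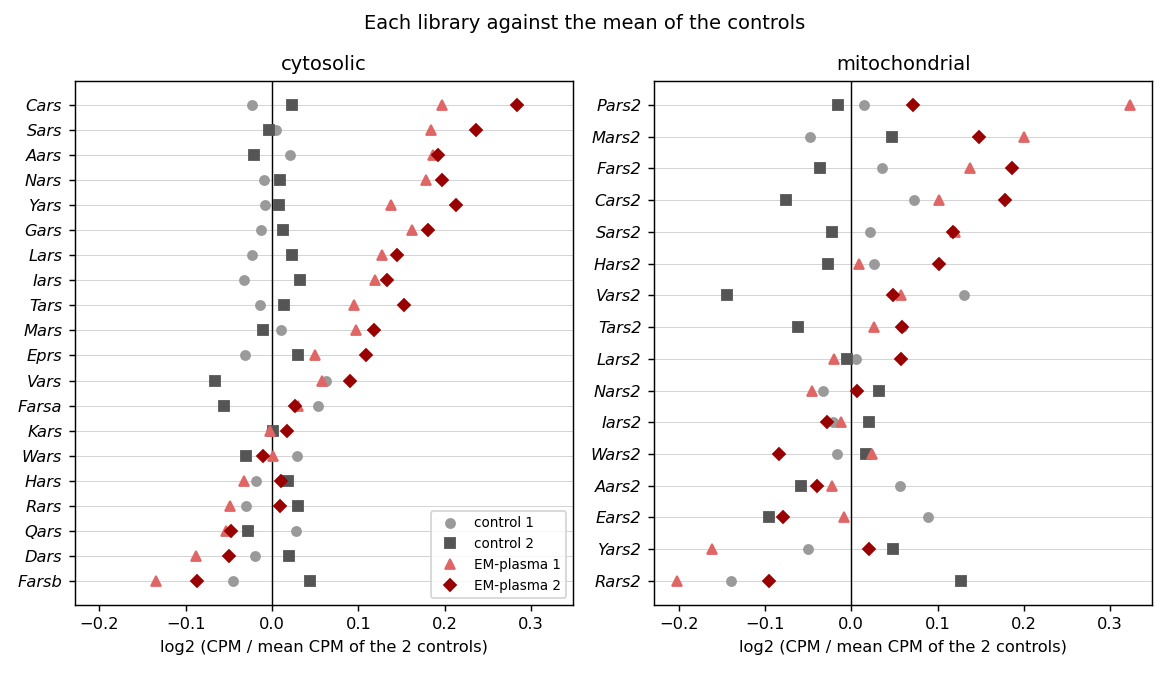
Log2 of the CPM in each library over the mean CPM of the 2 controls (horizontal axis) for each cytosolic (left) and mitochondrial (right) gene. Grey symbols are controls and red symbols EM-plasma libraries. For 11 cytosolic and 5 mitochondrial genes both red symbols lie to the right of both grey ones, as for 24.3% of all genes tested.

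The cytosolic genes were also set in groups by general knowledge of the enzymes, with earlier results of these data known. Of 13 commonly listed ATF4 targets (Aars, Cars, Eprs, Gars, Iars, Lars, Mars, Nars, Sars, Tars, Vars, Wars and Yars) 6 rose and 0 fell, 12 had a log2 fold change above 0 (49.1% of all genes tested did), and the median was 0.136. Of the other 7 cytosolic genes edgeR called 0 (0 higher and 1 lower at an unadjusted p below 0.05; 0 called by DESeq2), 2 lay above 0 and the median was -0.0195. That list came from general knowledge with earlier results known and is not independent evidence of its direction. Of the 8 enzymes that sit in the multisynthetase complex, a cytosolic assembly of several synthetases, 0 were called (3 higher at an unadjusted p below 0.05; 0 called by DESeq2), with a median of 0.044; with 3.34% of all genes called higher, 0 of 8 is near the background. Of the 12 free enzymes 6 rose, with a median of 0.148. By the fold of the catalytic domain, 2 of 10 class I and 4 of 10 class II enzymes rose, with medians of 0.093 and 0.076. No difference between these groups was tested.

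None of the 16 mitochondrial genes passed the test, and their values spread to both sides of 0. Mars2, for methionine, had the smallest p of them: it was at 30.002 and 32.043 CPM in controls and at 35.628 and 34.373 CPM with EM-plasma. Both treated libraries of Mars2 were above both controls (log2 fold change 0.17, SE 0.067, 95% interval 0.036 to 0.31, edgeR unadjusted p = 0.0154, adjusted p = 0.131). Pars2, for proline, had a log2 fold change of 0.20, the highest of the mitochondrial genes with all libraries in. Without EM-plasma 1 Pars2 stood at 0.070, below Fars2, Cars2, Mars2, Sars2 and Hars2. It was at 7.09 and 6.94 CPM in controls and 8.77 and 7.37 CPM with EM-plasma. It had the lowest CPM of the 36 genes, and its interval ran from -0.050 to 0.45 (edgeR adjusted p = 0.389). The groups were likewise apart for Fars2 (0.16, phenylalanine), Cars2 (0.14, cysteine) and Sars2 (0.12, serine), with edgeR adjusted p = 0.338, 0.282 and 0.374.

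Rars2, for arginine, had the lowest log2 fold change, -0.15 (95% interval -0.30 to 0.0027, edgeR adjusted p = 0.267). Its values were 41.1 and 49.4 CPM in controls and 39.3 and 42.4 CPM with EM-plasma, so the groups overlapped, and control 2 stood highest. Without control 2 its log2 fold change was -0.0057. Lars2 (leucine) and Iars2 (isoleucine) were the most abundant mitochondrial members and gave the narrowest intervals, -0.067 to 0.11 and -0.12 to 0.077. Lars2 was at 449.5 and 446 CPM in controls and at 442 and 466 CPM with EM-plasma. Rab3gap2, on the opposite strand, covers 22.9% of the exonic bases of Iars2, and whether the counting used strand is not given in the sources used here.

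For the other 8 mitochondrial genes the groups overlapped too. Hars2 (histidine), Vars2 (valine) and Tars2 (threonine) had log2 fold changes of 0.056, 0.052 and 0.042, and Nars2 (asparagine), Wars2 (tryptophan), Aars2 (alanine), Ears2 (glutamate) and Yars2 (tyrosine) of -0.019, -0.029, -0.031, -0.044 and -0.068. The sign changed when a library was left out for Aars2, Ears2, Iars2, Lars2, Nars2, Tars2, Vars2, Wars2 and Yars2. Hars and Hars2 lie head to head on chromosome 18 (36766528 to 36783205 and 36783008 to 36792562) and share 195 exonic bases on opposite strands. Neither member of that pair passed the test. Opposite-strand genes also cover 9.47% of the exonic bases of Farsb (Sgpp2), 8.72% of Fars2 (Nrn1), 8.52% of Vars2 (Gm20483) and 5.83% of Cars2 (Naxd).

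The mitochondrial transcripts were less abundant, and their fold changes were measured less precisely. Per kilobase of annotated exon the cytosolic genes ranged from 16.6 CPM (Farsa) to 156 CPM (Gars) in controls, with a median of 47.8. The mitochondrial genes ranged from 2.01 (Nars2) to 40.4 CPM per kilobase (Lars2), with a median of 6.54. After Lars2 the next were Iars2 at 19.0, Rars2 at 16.3 and Yars2 at 12.2 CPM per kilobase. The exon length counts every annotated transcript, so a gene with long rare exons reads low on this scale. The median SE of a log2 fold change was 0.047 for cytosolic and 0.071 for mitochondrial genes. The median log2 fold change of the 6 called genes, 0.189, lay inside the 95% interval of 7 of the 16 mitochondrial genes and above that of the other 9. Of the 14 cytosolic genes that were not called, it lay inside the interval of 4 and above that of 10. In genes whose interval holds it, a rise of that size cannot be told from the value measured.

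**Figure D4:**
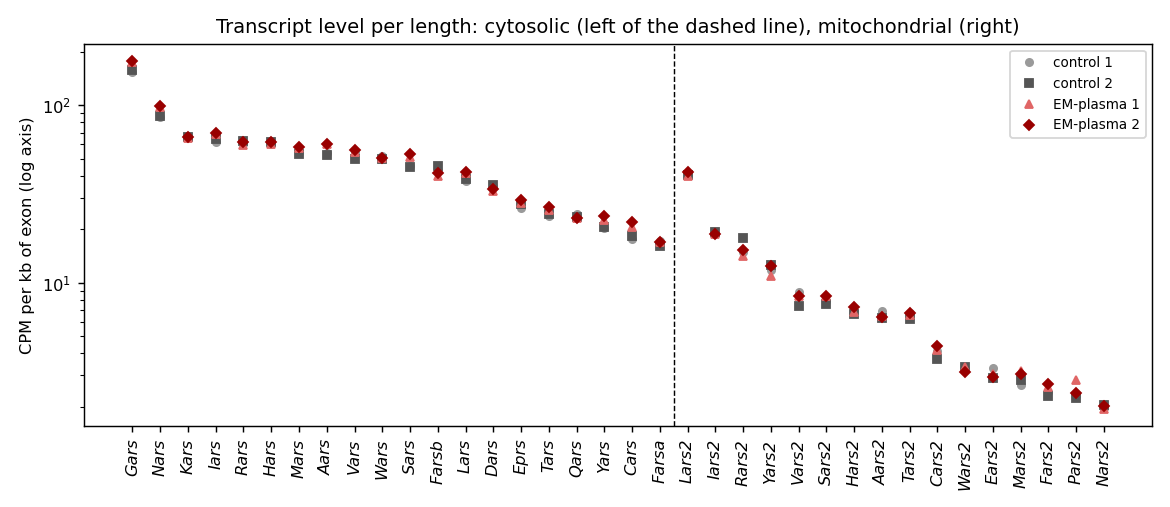
Level of each synthetase transcript in each library, in CPM per kilobase of annotated exon (vertical log axis), ordered by level within the cytosolic (left) and mitochondrial (right) genes. The libraries of a gene nearly coincide on this scale, and Lars2 at 40.4 and Iars2 at 19.0 in controls are the mitochondrial genes above the lowest cytosolic gene, Farsa at 16.6.

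Setting the enzymes for the same amino acid side by side gave 17 pairs, with Eprs paired to Ears2 and Pars2, and Farsa and Farsb each to Fars2. The cytosolic log2 fold change was the larger in 12 pairs and the mitochondrial one in 5 (methionine, proline, histidine and both phenylalanine pairs). The 95% intervals overlapped in all 17 pairs, and the differences were not tested. The widest gap was between Farsb at -0.11 and Fars2 at 0.16, a difference of -0.27. For tyrosine the values were 0.18 for Yars and -0.068 for Yars2. For alanine they were 0.19 for Aars and -0.031 for Aars2, and for asparagine 0.19 for Nars and -0.019 for Nars2. For cysteine and serine both members lay above 0, at 0.24 for Cars and 0.14 for Cars2, and at 0.21 for Sars and 0.12 for Sars2. In controls the cytosolic gene had the higher level per kilobase in 16 of the 17 pairs, and Lars was at 0.937 times the level of Lars2.

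**Figure D5:**
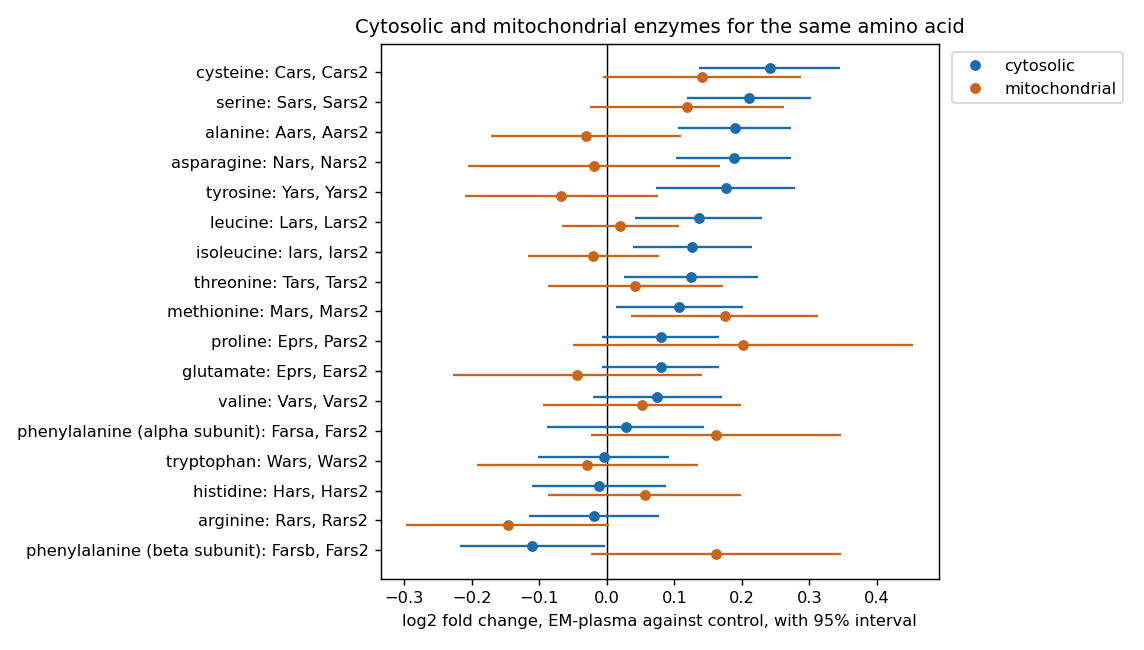
Log2 fold change with its 95% interval (horizontal axis) of the cytosolic (blue) and mitochondrial (orange) gene for each amino acid, ordered by the cytosolic value. The intervals overlap in all 17 pairs, and the tyrosine, alanine and asparagine pairs are the farthest apart with the cytosolic gene higher.

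Summed over the 20 cytosolic genes the level was 4771 and 4796 CPM in controls and 5085 and 5192 CPM with EM-plasma. The treated libraries were above the controls in this sum. Over the 16 mitochondrial genes it was 1009 and 1002 CPM in controls and 1002 and 1032 CPM with EM-plasma, which overlap. Lars2 alone held 449.5 and 446 CPM of it in controls and 442 and 466 CPM with EM-plasma. Lars2 therefore weighs heavily in the mitochondrial sums, and whether the overlap depends on it was not tested. The cytosolic sum was 4.73 and 4.79 times the mitochondrial sum in controls and 5.08 and 5.03 times with EM-plasma.

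Other genes of the pathway were read from lists that were likewise drawn up with earlier results known. Of 13 genes of the ATF4 response and the steps before it 6 rose and 0 fell, against 3.34% and 2.88% of all genes. The list holds the kinase genes Eif2ak1, Eif2ak2 and Eif2ak3 beside Eif2ak4, and whether uncharged tRNA had a part was not tested. At an edgeR unadjusted p below 0.05 there were 7 higher and 1 lower. The lower one was Eif2ak2, for the kinase PKR, with both treated libraries below both controls (log2 fold change -0.15, edgeR unadjusted p = 0.0184, adjusted p = 0.145). Asns, which makes asparagine, rose from 162 and 173 CPM to 215 and 221 CPM (log2 fold change 0.38, edgeR adjusted p = 3.73e-06). Trib3, a pseudokinase that feeds back on ATF4, rose by 0.58 on the log2 scale (edgeR adjusted p = 1.21e-05), and Chac1, which breaks down glutathione, by 0.47 (edgeR adjusted p = 0.000493). Atf3, Ddit3 and Atf4 encode transcription factors of this response and rose by 0.45, 0.34 and 0.17 on the log2 scale (edgeR adjusted p = 0.016, 0.00448 and 0.016). The kinase gene Eif2ak4, for GCN2, was at 60.6 and 59.2 CPM in controls and at 58.0 and 56.4 CPM with EM-plasma (log2 fold change -0.066, edgeR adjusted p = 0.586). DESeq2 called 5 genes of this list higher and did not call Atf3 (DESeq2 adjusted p = 0.0654). The log2 fold change of Atf3 was 0.556 without control 1 and 0.357 without control 2. Leaving out a control left 5 (control 1) or 1 (control 2) called higher, and leaving out a treated library left 4 (the first) or 3 (the second).

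Genes that work beside the synthetases gave 0 calls in each of 5 lists, by edgeR and by DESeq2, which in lists this short is close to the 6.21% of all genes called. They were the 3 scaffold proteins of the multisynthetase complex (0 at an unadjusted p below 0.05), 8 tested of 9 further genes of aminoacylation and tRNA transport (1), 4 genes of amidation and formylation of mitochondrial tRNAs (0), 9 mitochondrial translation factors (1) and 6 cytosolic elongation factors (1). The member with the smallest p was Xpot, the tRNA exporter, in the second list (log2 fold change 0.10, edgeR adjusted p = 0.21), Mtif3, a mitochondrial initiation factor, in the fourth (0.18, edgeR adjusted p = 0.182) and Eef2, the ribosomal translocase, in the fifth (0.084, edgeR adjusted p = 0.196). Eef2 was called higher when control 1 was left out. In the scaffold list it was Aimp1 (0.062, edgeR adjusted p = 0.623), and in the amidation list Mtfmt, the formyltransferase (0.12, edgeR adjusted p = 0.445). The medians of the 5 lists were 0.052, 0.031, -0.012, -0.025 and 0.046.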

How the data were processed

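The authors deposited a table of whole-number counts per Ensembl gene and a table of scaled signal for each library. GRCm38 is the build in the submitters' processing notes, which also list CASAVA, TopHat2 2.1.1, HTSeq and edgeR without saying what each did. Which annotation was counted, and whether strand was used, is not given in the sources used here. In each library the deposited signal was the count multiplied by a single constant, so these tables served only to check the columns. Symbols (53274 of 53465 rows), positions and exon lengths came from GENCODE M21 on GRCm38; rows with no symbol held at most 0.0526% of a library's counts. Promoter windows came from RefSeq (GRCm38.p6), and 1 stretch in the window of Aars is not reported here.

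Genes were filtered by filterByExpr, scaled by TMM and tested with edgeR 4.0.16 in R 4.3.3 (quasi-likelihood F test, legacy dispersion, group only, two-sided, Benjamini-Hochberg over 13664 genes, threshold 0.05). CPM use TMM-scaled totals of tested genes; marker sums use raw totals. The SE of a fold change was taken as its size on the log2 scale divided by the square root of the F statistic, with 95% intervals on the test's degrees of freedom. Neither covers anything but counting noise and library-to-library spread. The script was tested on simulated data with changes larger than the rises of the called synthetases, so that test does not bear on rises this small. Replicates differed beyond sampling noise (chi-square per degree of freedom 8.02 for controls and 2.93 for EM-plasma). All 36 members are named, and called members of the related lists or the member of smallest p. Members, lists and motifs were chosen with earlier results of these data known. Alternatives were DESeq2 1.42.0, other scaling, filters and dispersion, a replicate block and leaving out each library.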

Additional observations from a re-analysis of the deposited data

How the results depend on the processing

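The 6 called synthetase genes, the absence of cytosolic genes called lower and the absence of mitochondrial calls were the same with DESeq2, RLE scaling, the stricter filter and the newer dispersion. All genes called numbered 849 in the reported fit, 557 with DESeq2 and 1683 with the replicate block. With no filter on low counts 14 genes and 0 cytosolic synthetases were called. Then 22906 genes were tested, with a median SE of 0.264, against 0.0698 over the 13664 genes of the reported fit. These medians cover different genes. The degrees of freedom of the test were 5.36, against 27.5. The median log2 fold change of the cytosolic synthetases was 0.0908, against 0.0934. Leaving out 1 library gave 547 (control 1 left out) or 71 genes called (control 2 left out), and 262 or 256 with the first or the second treated library left out, with 0 to 4 cytosolic synthetases called higher, and 0 mitochondrial ones; the group left with 1 library was assumed to vary like the other. The cause of these losses was not tested. With the replicate block 9 cytosolic synthetases were called higher, adding Iars, Lars and Tars. Of the 13 genes of the ATF4 response and the steps before it 7 were then called higher and 1 lower. The replicate numbers name the libraries and are not stated to pair them (correlation of same-numbered deviations 0.0777). The width of the intervals given depends on the 2 libraries per group, the counts of each gene and a spread pooled over all genes tested. Of the 27.5 degrees of freedom of the test, 25.5 came from that pooling and not from the libraries of the gene itself.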
